A study of Homo sapiens with 9 samples.

Results

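TNF, IL1B, CCL2 and PLAUR are 4 mRNAs that are textbook carriers of AU-rich elements, short A- and U-rich stretches of the 3' UTR that shorten the life of an mRNA. They were chosen by name as such targets, at a time when the knockdown and control values of these libraries were already known, so the comparison of knockdown with control is given for them as a description, without a p-value. The 4 genes are 4 of 25540 gene symbols in the expression table, and all 4 are among the 10939 symbols that had a mean of at least 1 TPM over the libraries and were tested. TPM is a length-corrected level scaled to the same total in each library. The libraries are RNA sequencing of CAL-1, an established human line from BPDCN, a rare blood cancer (blastic plasmacytoid dendritic cell neoplasm). KHSRP was knocked down by CRISPR interference, in which a nuclease-dead Cas9 carried to a promoter by a guide RNA blocks transcription. There are 9 libraries: 3 of the control group NTC, whose genotype label is WT, 3 of KHSRPi#1 and 3 of KHSRPi#2, whose genotype labels both name the knockdown. The labels do not say what #1 and #2 stand for, and the groups are called guide 1 and guide 2 here. No treatment, time point or stimulus is labelled, all libraries share 1 batch label, and no label ties replicates to separate cultures. The p-values below therefore reflect library-to-library variation that could be purely technical.

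KHSRP is an RNA-binding protein that attaches to AU-rich elements through its KH domains and recruits deadenylases and the exosome, which remove the mRNA, and it also assists the maturation of some microRNA precursors. The question that KHSRP loss puts to these mRNAs is therefore whether their steady-state level differs when the decay factor is depleted. TNF encodes the inflammatory cytokine tumor necrosis factor, IL1B encodes interleukin-1 beta, CCL2 encodes a chemokine that draws monocytes, and PLAUR encodes the urokinase receptor, which gathers plasminogen activation at the cell surface. Plasmacytoid dendritic cells sense nucleic acids and are known chiefly for type I interferon, and TNF is among the cytokines they release.

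The stretches that carry the motif are shown because they are the feature the 4 mRNAs were picked for. Each is 30 bases of the 3' UTR in the last exon, read 5' to 3' on the mRNA strand from the hg38 genome (T stands for U), and the capitals mark the pentamer ATTTA, the core of an AU-rich element, with overlapping copies run together.
TNF: ttattATTTATTTAttATTTATTTATTTAc
IL1B: gcttccctATTTATTTATTTAtttgtttgt
CCL2: atgttaattcttATTTAagttattgatgtt
PLAUR: aatattcatattATTTAttttatacttaca
The TNF stretch lies at chr6:31578004-31578033 on the plus strand in exon 4 of 4 and holds 5 overlapping pentamers. The IL1B stretch lies at chr2:112829994-112830023 on the minus strand in exon 7 of 7 and holds 3. CCL2 has 1 pentamer, at chr17:34256951-34256980 on the plus strand in exon 3 of 3. PLAUR has 1, at chr19:43648600-43648629 on the minus strand in exon 7 of 7. The genes span chr6:31575567-31578336 for TNF, chr2:112829751-112836903 for IL1B, chr17:34255218-34257203 for CCL2 and chr19:43646095-43670547 for PLAUR in GENCODE 29.

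The 4 mRNAs differ in how much of the motif they hold. In the transcript with the longest coding sequence, the TNF 3' UTR of 799 bases holds 9 ATTTA pentamers and 5 copies of the nonamer TTATTTATT, a stricter form of the element; copies may overlap and the pentamers include those inside nonamers. The IL1B 3' UTR of 610 bases holds 6 pentamers and 2 nonamers. The CCL2 3' UTR of 376 bases holds 1 pentamer and no nonamer, and the PLAUR 3' UTR of 310 bases holds 1 pentamer, which lies in its 1 nonamer. Only the mRNA strand was searched, since the element acts in RNA.

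Among the 9771 tested genes with an annotated 3' UTR, 68.1% hold at least 1 pentamer, the median is 2, and 8.1% hold a nonamer. Of 1185 3' UTRs within 0.8 to 1.25 times the TNF length, 0.338% hold as many pentamers as TNF and 4.39% hold a nonamer. For IL1B the shares are 1.34% and 3.3% of 1121. For CCL2, 47.3% of 994 3' UTRs of similar length hold as many pentamers and 2.31% hold a nonamer, and for PLAUR 42.8% of 871 and 2.18%. By pentamer count TNF and IL1B are dense for their length and CCL2 and PLAUR are not, while by the nonamer PLAUR, TNF and IL1B all hold a form that few 3' UTRs of their length hold, and CCL2 does not. A match is a description of the letters and not of a bound site.

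**Figure D1:**
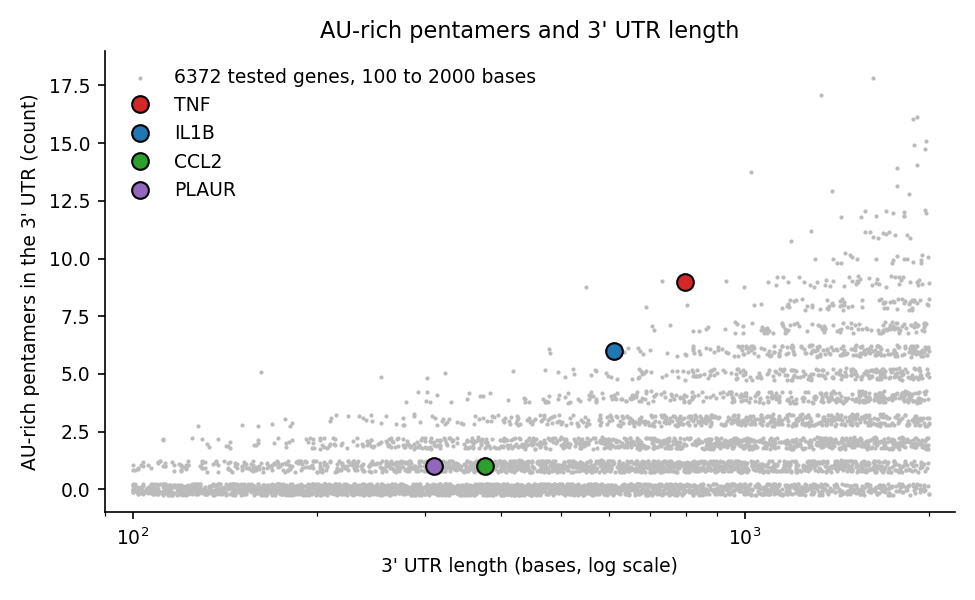
Number of AU-rich pentamers in the 3' UTR (vertical axis, points of other genes scattered slightly around each whole number) against 3' UTR length in bases (log axis) for 6372 tested genes with a 3' UTR of 100 to 2000 bases in grey, with the 4 mRNAs as large points. TNF at 9 and IL1B at 6 sit at the upper edge for their length, and CCL2 and PLAUR sit at 1, the median of the plotted genes.

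KHSRP itself measured 253, 244 and 216 TPM in the control libraries, 35.1 TPM in each library of guide 1, and 35.8, 33.7 and 36.5 TPM in those of guide 2. Its level was 14.2% to 15.4% of the control mean in all 6 knockdown libraries, below every control library. On the first principal component (38.3% of the variance) replicate 3 of each group was separated from replicates 1 and 2, and the main comparisons of the 4 mRNAs are therefore also given with a term for replicate 3 in the model or by replicate number. TPM keeps no read totals. The relative depth ran from 0.98 to 1.83 times that of control replicate 1, and 13966 to 14462 symbols were above 0. Of 14 plasmacytoid dendritic cell markers 11 had a mean of at least 1 TPM, with TCF4 at 210 TPM and CLEC4C at 67.5 TPM, but IL3RA was listed at 0 in all 9 libraries, and LILRA4 (0.881 TPM) and PTCRA (0.665 TPM) were low.

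In control cells the 4 mRNAs covered a wide range of levels, on a scale that TPM corrects for length. PLAUR was the most abundant, at 105 ± 16.8 TPM (mean ± SD, n = 3), above 86.7% of tested genes. TNF measured 20.8 ± 3.2 TPM, above 49.8% of them, IL1B 11.1 ± 4.82 TPM, above 33.8%, and CCL2 5.58 ± 2.03 TPM, above 19.7%. The order PLAUR, TNF, IL1B, CCL2 held in the control means, and in control replicate 1 IL1B and CCL2 were close (8.08 and 7.75 TPM). PLAUR lay above TNF, and TNF above IL1B, in each of the 9 libraries.

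TNF measured 17.9, 20.5 and 24.2 TPM in control replicates 1, 2 and 3. With guide 1 it measured 15.5, 14.6 and 19.4 TPM, and with guide 2 16.6, 16.0 and 22.3 TPM. The group means were 16.5 ± 2.57 and 18.3 ± 3.49 TPM (SD, n = 3), which is 79.2% and 87.9% of the control mean. Replicate 3 was highest in each group, 4 of the 6 knockdown libraries were below the lowest control, and the groups overlapped through the replicate 3 libraries. The log2 fold change on log2(TPM + 1), for the guides' mean against control, was -0.25 (SE 0.13, or 0.05 with the replicate 3 term); it was -0.32 for guide 1 and -0.18 for guide 2, which share the same 3 controls. The difference of the means was about the size of the spread between replicates of a group.

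IL1B measured 8.08, 8.52 and 16.6 TPM in the controls. It measured 7.07, 6.2 and 12 TPM with guide 1 and 6.07, 6.29 and 12.5 TPM with guide 2. The means of 8.44 ± 3.15 and 8.3 ± 3.67 TPM (SD, n = 3) are 76.1% and 74.9% of the control mean. Its replicate 3 library stood highest in every group, at 2.01, 1.81 and 2.03 times the mean of replicates 1 and 2 in NTC, guide 1 and guide 2, so the spread between replicates exceeded the difference between groups. Again 4 of 6 knockdown libraries were below the lowest control. The log2 fold change for the mean of the guides was -0.36 (SE 0.28, or 0.06 with the replicate 3 term), with -0.34 for guide 1 and -0.38 for guide 2.

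CCL2 had the lowest level of the 4 and the largest difference in ratio. It measured 7.75, 5.25 and 3.73 TPM in the controls, 5.03, 3.09 and 2.35 TPM with guide 1, and 4.1, 3.14 and 2.41 TPM with guide 2. The means of 3.49 ± 1.38 and 3.22 ± 0.847 TPM (SD, n = 3) are 62.5% and 57.7% of the control mean. Here replicate 3 was the lowest library of each group, the reverse of the other members, at 0.574, 0.58 and 0.667 times the mean of replicates 1 and 2. The groups overlapped because control replicate 3 lay below replicate 1 of both guides, and 4 of 6 knockdown libraries were below the lowest control. The log2 fold change was -0.58 (SE 0.22, or 0.14 with the replicate 3 term), with -0.55 for guide 1 and -0.62 for guide 2. With the pseudocount of 1 this understates the change of so low a gene, and it read -0.71 with a pseudocount of 0.1 and -0.33 with 5.

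The CCL2 values rest on few reads. Low TPM values move in steps of what 1 read is worth, and CCL2 measured in those steps falls near whole numbers in every library; the smallest such numbers (to within 0.051 of a read) are 58, 58 and 51 reads in the controls, 50, 32 and 25 with guide 1, and 47, 23 and 20 with guide 2. If those are the counts, counting error alone (exact Poisson 95% interval) spans 2.78 to 4.91 TPM in control replicate 3 and 1.47 to 3.73 TPM in guide 2 replicate 3. In replicate 1 it spans 5.89 to 10 TPM in the control, 3.73 to 6.63 TPM with guide 1 and 3.01 to 5.45 TPM with guide 2. The intervals of control and guide 2 overlap in replicate 3 and do not in replicate 1. They describe each library's counting error and test no difference, and multiples of these numbers would give narrower intervals.

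PLAUR measured 95.8, 94.3 and 124 TPM in the controls, 83.4, 86.9 and 104 TPM with guide 1, and 88.8, 87.8 and 107 TPM with guide 2. The means of 91.5 ± 11.2 and 94.5 ± 10.8 TPM (SD, n = 3) are 87.4% and 90.3% of the control mean, the smallest difference of the 4. Replicate 3 was highest in each group, 1.21 to 1.31 times the others, and 4 of 6 knockdown libraries were below the lowest control. The log2 fold change was -0.16 (SE 0.11, or 0.03 with the replicate 3 term), with -0.19 for guide 1 and -0.14 for guide 2.

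**Figure D2:**
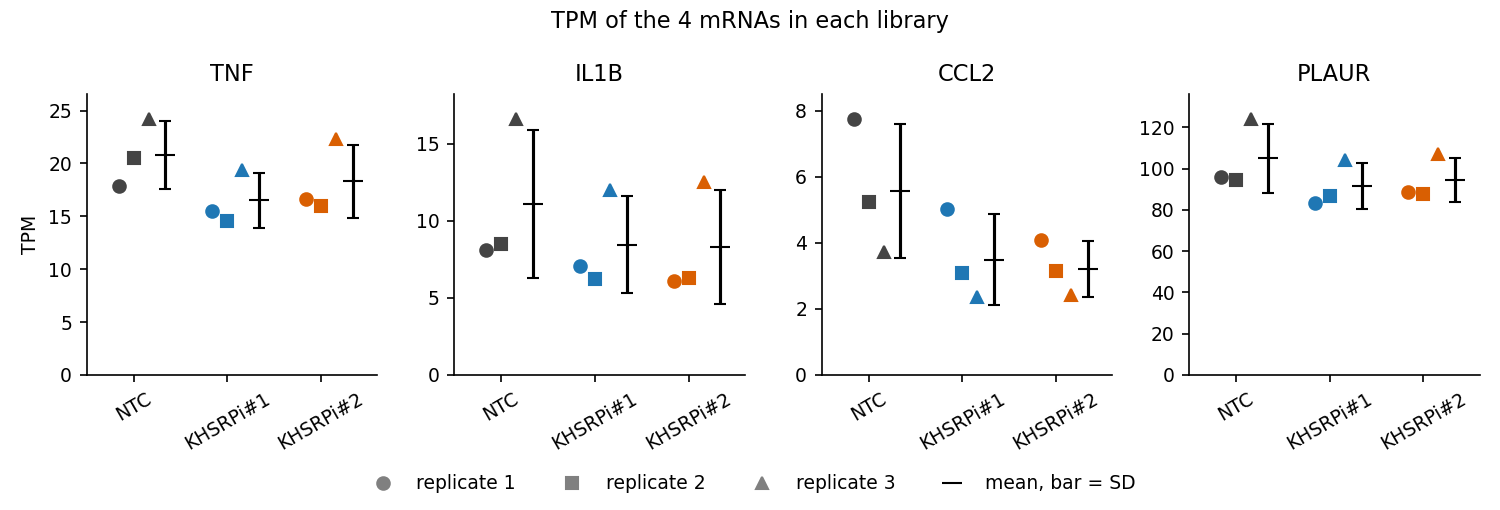
TPM of TNF, IL1B, CCL2 and PLAUR (vertical axes, from 0, a separate scale per gene) in each of the 9 libraries by group, with circles, squares and triangles for replicates 1, 2 and 3 and black marks for the mean with SD of 3 libraries. Replicate 3 is the highest library of every group for TNF, IL1B and PLAUR and the lowest for CCL2, and the groups overlap for all 4.

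Set against the control library of the same replicate number, every knockdown library was lower for each of the 4 mRNAs. Replicate numbers were not taken to pair the libraries, and each control serves both guides, so the 6 comparisons of a gene are not independent. TNF ran from 71.4% to 93.2% of that control, IL1B from 72.4% to 87.5%, CCL2 from 52.9% to 64.8%, and PLAUR from 84.1% to 93.1%. Being below the same-numbered control in all 6 knockdown libraries held for 4 of 4 mRNAs and for 7.35% of tested genes. In replicates 1 and 2 alone all 4 mRNAs had knockdown libraries below both controls, which held for 8.96% of tested genes. Over all 9 libraries none of the 4 separated the groups in that direction, against 1.57% of tested genes. These counts describe the values that were known when the genes were chosen, and nothing is read from them.

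**Figure D3:**
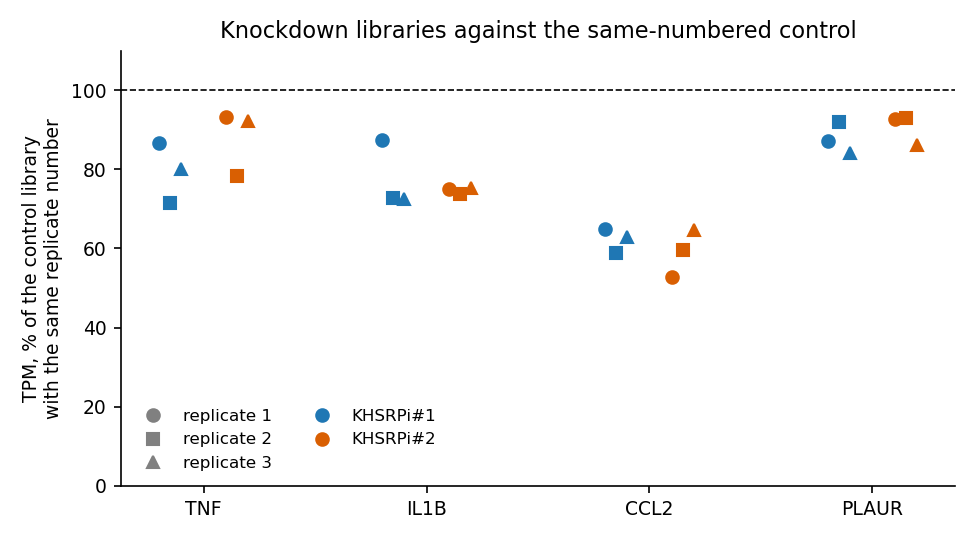
TPM of each knockdown library as a percent of the control library with the same replicate number (vertical axis, from 0), for the 4 mRNAs, with shapes for replicate numbers and colours for the guide groups; the dashed line is 100%. All 24 points lie below the line, with CCL2 lowest (52.9% to 64.8%) and TNF and PLAUR reaching 93.2% and 93.1%. Each control library serves both guides, so the points are not independent.

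Replicate 3 was the highest library in all 3 groups for 3 of the 4 mRNAs (TNF, IL1B and PLAUR), as for 26.0% of tested genes. CCL2 was the 1 member with replicate 3 lowest in all 3 groups, as for 16.6% of tested genes. The excess of replicate 3 on the log2 scale was 0.33, 0.35 and 0.43 for TNF in NTC, guide 1 and guide 2, and 0.92, 0.77 and 0.92 for IL1B. For CCL2 it was -0.64, -0.57 and -0.43. In each member the step between replicate 3 and the others was about as large in the control libraries as in the knockdown libraries, and in the controls it was larger than the knockdown difference for each of the 4. In bulk RNA fewer cells of a type and less RNA per cell cannot be told apart. The summed level of 12 monocyte or macrophage markers ran from 76.1 to 130 TPM in the controls, 80.6 to 120 with guide 1 and 75.2 to 107 with guide 2, nearly all of it LYZ and CD68, while S100A8, S100A9 and FCN1 were at 0 in every library and CD14 averaged 0.0368 TPM.

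By the adjusted p of limma (Benjamini-Hochberg over all tested genes, below 0.05) none of the 4 mRNAs was called for the guides' mean against control, where 0.0823% of tested genes were, nor for guide 1 (0.0548%) or guide 2 (0.0548%). With the replicate 3 term the calls were 3 of 4 for the mean of the guides (TNF, IL1B and PLAUR; 1.76% of tested genes), 1 of 4 for guide 1 (TNF; 0.676%) and 1 of 4 for guide 2 (IL1B; 0.804%). Leaving out 1 library at a time in that model gave 0 to 3 of 4 for the guides' mean, and 0 without control replicate 3. IL1B was called in every other such fit, and TNF in none. PLAUR was called only without control replicate 2, and CCL2 only without control replicate 2 or guide 1 replicate 1. The contrast chose the genes, and these counts are given as a description only.

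The difference between guide 2 and guide 1 does not use the control levels, and it was tested. Its p-values and intervals rest on a spread estimated from all 9 libraries, the controls included. No member was called between the guides, in a comparison in which limma called 0.0% of tested genes without the term and 0.0% with it, and in which 115 genes (1.05%) had an unadjusted p under 0.05 (339, or 3.1%, with the term). TNF was 0.14 higher with guide 2 on the log2 scale (95% interval -0.19 to 0.47, limma adjusted p = 1.0, or 0.977 with the term). IL1B differed by -0.04 (-0.76 to 0.68, limma adjusted p = 1.0), CCL2 by -0.07 (-0.64 to 0.5, limma adjusted p = 1.0) and PLAUR by 0.05 (-0.23 to 0.32, limma adjusted p = 1.0). Without the term the interval of each of the 4 holds values as large as the difference from control. With the term the intervals were narrower, at 0.0 to 0.27 for TNF (unadjusted p = 0.0479 by limma), -0.19 to 0.11 for IL1B (limma adjusted p = 0.977), -0.41 to 0.28 for CCL2 (limma adjusted p = 0.98) and -0.04 to 0.13 for PLAUR (limma adjusted p = 0.977). For IL1B, CCL2 and PLAUR those do not reach the size of the log2 fold change against control (-0.36, -0.58 and -0.16), and for TNF the interval does (-0.25).

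A list of 41 other cytokines, chemokines and similar genes was drawn up from genes known or thought to hold AU-rich elements, and most were below the filter. Of these, 10 were tested, 31 were not, and 20 of the 31 were listed at 0 in all libraries, CXCL8 among them. IL3RA, a defining marker of this tumor type, is also listed at 0 throughout. Whether a listed 0 means no expression was not tested for any of these genes. Nor does every listed gene hold the motif: in the transcripts used, the 3' UTRs of LTB (154 bases) and VEGFA (47 bases) hold 0 pentamers, and that of LTA holds 3. None of the 10 was called in any comparison. For the guides' mean 0.0823% of all tested genes were, or 1.76% with the replicate 3 term. Of the 10, 7 had a negative log2 fold change (median -0.09), against 41.7% of all tested genes (median 0.018). LTA, which lies next to TNF in the genome, measured 3.02 ± 0.518 TPM in NTC and 2.72 ± 0.189 TPM (n = 6) in the knockdown libraries. LTB, on the other side of TNF, measured 4.34 ± 1.53 and 3.63 ± 1.0 TPM. TGFB1, the most abundant of the list, measured 93.6 ± 9.0 and 84.0 ± 3.8 TPM (limma adjusted p = 0.606, or 0.154 with the term).

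TNF binds the receptors TNFRSF1A and TNFRSF1B, and ADAM17 sheds it from the cell surface. TNFRSF1A measured 40.1 ± 3.06 TPM in NTC and 35.6 ± 0.747 TPM in the 6 knockdown libraries. All 6 lay below the lowest control, which held for 1.57% of tested genes. TNFRSF1A was not called (log2 fold change -0.17, limma adjusted p = 0.505, or 0.119 with the term). TNFRSF1B (log2 fold change 0.07) and ADAM17 (0.08) were not called either. None of the 28 tested genes of TNF reception and signaling was called, with or without the term, and their median was 0.01. For the guides' mean the share called over all tested genes was 0.0823%, or 1.76% with the term. At such shares a list this short can easily hold none. TNFAIP3, the deubiquitinase that dampens NF-kB and is itself a TNF target, measured 30.5 ± 5.23 and 26.5 ± 4.45 TPM (limma adjusted p = 0.763, or 0.0688 with the term), with replicate 3 highest in each group as for TNF.

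Pro-interleukin-1 beta is cut to its active form by CASP1 in the inflammasome, which NLRP3 can nucleate. CASP1 measured 6.32 ± 0.604 TPM in NTC and 7.88 ± 1.23 TPM in the knockdown libraries (log2 fold change 0.27, limma adjusted p = 0.606, or 0.0661 with the term). NLRP3 measured 33.0 ± 8.06 and 28.6 ± 5.63 TPM (limma adjusted p = 0.82, or 0.083 with the term), again with replicate 3 highest in each group. The signaling receptor IL1R1 and the antagonist IL1RN were below the filter, and the co-receptor IL1RAP measured 2.7 and 2.8 TPM. None of the 19 tested genes of the interleukin-1 list was called. For the guides' mean 0.0823% of all tested genes were, or 1.76% with the term. Of the 19, 9 had a negative log2 fold change (median 0.03), against 41.7% of all tested genes (median 0.018).

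CCR2 is the main receptor for CCL2 and was expressed at more than the level of its ligand, at 12 ± 1.16 TPM in NTC and 13.8 ± 0.748 TPM with knockdown. It was not called (log2 fold change 0.19, limma adjusted p = 0.55, or 0.175 with the term), and 4 of 6 knockdown libraries lay above the highest control. CXCR4, the most abundant chemokine receptor of the list, measured 120 and 132 TPM. None of the 5 tested chemokine receptors was called, and 12 of the 17 listed were not tested. For the guides' mean 0.0823% of all tested genes were called, or 1.76% with the term.

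PLAUR captures urokinase, encoded by PLAU, at the membrane. PLAU measured 6.36 ± 0.568 TPM in NTC and 6.08 ± 0.413 TPM in the knockdown libraries (limma adjusted p = 0.9, or 0.731 with the term), well below its receptor. The clearance receptor LRP1 (0.0192 and 0.0229 TPM) was below the filter, while the integrin subunit ITGB2, a membrane partner of the receptor, measured 64.5 and 64.1 TPM. SERPINB2 encodes a urokinase inhibitor, and its mRNA has AU-rich elements. It was the 1 gene of the 13 tested in this list that was called. The call came for the guides' mean with the replicate 3 term only, where 1.76% of all tested genes were called. It measured 0.618, 0.859 and 0.925 TPM in the controls, 1.93, 1.67 and 1.37 TPM with guide 1, and 1.59, 1.76 and 1.47 TPM with guide 2. All 6 knockdown libraries lay above all 3 controls, the opposite side from the 4 mRNAs. The share of tested genes lying above in that way was not counted. SERPINB2 passed the filter only through the knockdown libraries (1.63 ± 0.202 TPM), since its control mean was 0.8 ± 0.162 TPM. Its call is therefore given as a description only. Its log2 fold change was 0.55 (SE 0.11; limma adjusted p = 0.167, or 0.0212 with the term), and in the model with the term it was not called without control replicate 1 (0.0961). At so low a level the pseudocount sets the size, and the log2 fold change read 0.95 with a pseudocount of 0.1 and 0.19 with 5. Its 3' UTR of 585 bases holds 4 pentamers and 1 nonamer.

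NF-kB drives transcription of TNF, IL1B, CCL2 and PLAUR. None of the 17 genes for its subunits, inhibitors and kinases was called, 12 of 17 had a negative log2 fold change (median -0.04), and NFKB1, the most abundant, measured 84.1 and 82.6 TPM.

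Among 23 other proteins that bind AU-rich elements, 1 was called for the mean of the guides without the replicate 3 term (FUBP1; 0.0823% of all tested genes) and 3 were with it (1.76%). ZFP36 (tristetraprolin), which speeds the decay of TNF mRNA, measured 81.0 ± 5.47 TPM in NTC and 66.7 ± 3.21 TPM in the knockdown libraries. For ZFP36 all 6 knockdown libraries lay below all 3 controls, which held for 1.57% of tested genes. Its log2 fold change was -0.28 (limma adjusted p = 0.204, or 0.012 with the term), and in the model with the term the call was lost without control replicate 3 (0.0558). ZFP36L1, of the same family, measured 52.2 ± 9.39 and 40.9 ± 7.7 TPM (log2 fold change -0.35, limma adjusted p = 0.606, or 0.00396 with the term), and with the term it was called whichever library was left out. ZFP36L2, also of that family, measured 59.1 ± 4.1 and 60.7 ± 3.58 TPM and was not called. Its log2 fold change was 0.04 (limma adjusted p = 0.91, or 0.695 with the term). FUBP1, a paralog of KHSRP, measured 188 and 306 TPM and rose by 0.70 on the log2 scale (limma adjusted p = 0.000905, or 4.28e-06 with the term). So the mRNAs of 2 decay factors, ZFP36 and ZFP36L1, were called lower only with the term in the model, and that of ZFP36L2 was not. The protein levels were not measured. Whether that bears on the 4 mRNAs was not tested.

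**Figure D4:**
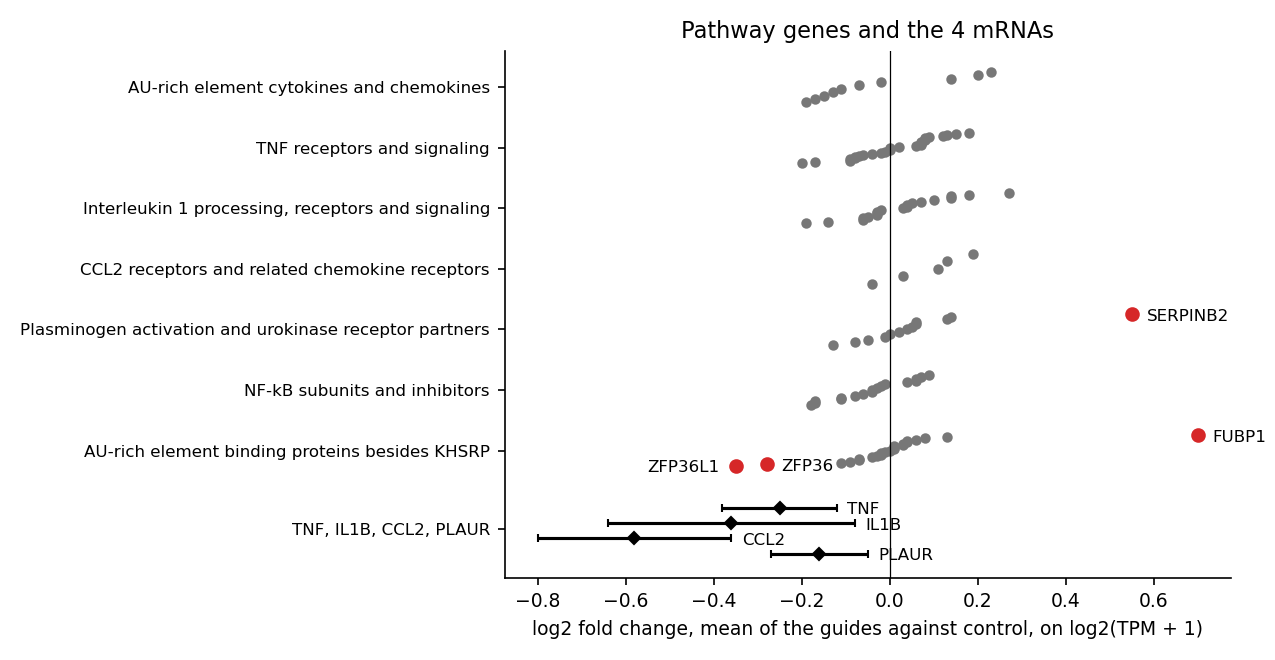
Log2 fold change of the guides' mean against control on log2(TPM + 1) (horizontal axis) for the tested genes of 7 lists (grey, ordered within a list) and for the 4 mRNAs (black diamonds, bars = SE). Red points are the genes called with the replicate 3 term: FUBP1 at 0.70, SERPINB2 at 0.55, ZFP36 at -0.28 and ZFP36L1 at -0.35; the 4 mRNAs lie between -0.58 and -0.16.

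The nonamer was also looked up in the other tested genes. Of 788 other tested genes whose 3' UTR holds TTATTTATT, 38.1% had a negative log2 fold change (median 0.025), against 43.3% of the 8979 without it (median 0.014). For guide 1 the shares were 48.9% and 48.7%, and for guide 2 30.6% and 39.8%. For the mean of the guides none of the 788 was called without the replicate 3 term, and 5 were called higher and 4 lower with it, beside 101 higher and 43 lower of the 8979. Of these 788 genes, 6.09% were below the same-numbered control in all 6 knockdown libraries, against 7.89% of those without the nonamer. For the 182 genes with 2 or more nonamers, as in TNF and IL1B, the share was 7.14% and the median 0.013. These are descriptions of the libraries, with no test.

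The genes whose pattern over the 9 libraries was most like each member were ranked by the mean absolute difference of standardised log2(TPM + 1), in SD units. For TNF they included NKAIN2 (0.197) and ZFP36L1 (0.198), with a median of 1.04 over all tested genes. For IL1B they were IFITM1 (0.148), VKORC1 (0.173) and RHOF (0.181), with a median of 1.04. For PLAUR they were ANXA6 (0.0984), GNAI2 (0.101) and BCR (0.114), with a median of 1.02. For CCL2 they were UBE2C (0.22), AIMP2 (0.283) and LTA (0.296), with a median of 1.22. Among the members, TNF, IL1B and PLAUR were close to one another (0.229 to 0.328), and CCL2 was far from all of them (1.23 to 1.36). The measure gives much of its weight to the step between replicate 3 and the others.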

How the data were processed

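RNA of 9 CAL-1 libraries was sequenced after column extraction, with Roche Kapa given as the library name, per the labels' protocols. The values are TPM as the authors deposited them, 1 row per symbol, that is, reads corrected for transcript length and set to the same total in each library. Per the submitters' processing notes the genome was hg38. Neither the aligner and counter nor the gene models or strand setting is named (not given in the sources used here). Reads of a gene and of an antisense partner can therefore not be separated. Groups and replicate numbers come from the sample titles. No 2 libraries held identical values.

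Symbols with a mean TPM of at least 1 were log-transformed as log2(TPM + 1), the 1 being the pseudocount, and tested by limma 3.58.1 under R 4.3.3 (eBayes with trend, two-sided, 1 model of all 9 libraries, Benjamini-Hochberg adjustment, called below 0.05). A second model held a term for replicate 3. The limma model without the replicate 3 term was tested on simulated data that held no replicate 3 step. No other step was tested in that way. Depth was read from the spacing of low TPM values, since TPM keeps no read totals. 3' UTRs were cut from GENCODE 29 on the same build, in the transcript with the longest coding sequence. Python 3.11.15 with numpy 2.4.6, pandas 2.3.3, scipy 1.17.1 and matplotlib 3.10.9 was used.

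Genes named are the 4 mRNAs, KHSRP, genes of 7 lists (192 genes, all in the table, 115 tested) that were called, their most abundant tested gene, the direct partners of the 4 mRNAs and the 3 genes most alike each mRNA over the libraries. LTA, LTB, VEGFA, TNFAIP3, NLRP3, CXCL8 and ZFP36L2 were named after their values were seen, outside this rule. Some genes that this rule names are not reported here. The members, the lists and the replicate 3 term were chosen with earlier results of these data known. Alternatives were other pseudocounts, filters, scalings, a replicate block, robust eBayes, replicates 1 and 2 alone and each library left out. Fewer cells and less RNA per cell were not separable.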

Additional observations from a re-analysis of the deposited data

How the results depend on the processing

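The log2 fold change of each of the 4 mRNAs for the guides' mean against control stayed negative under every alternative run, 19 for TNF, IL1B and PLAUR and 18 for CCL2, which was not tested at a filter of mean TPM 5. The ranges were -0.35 to -0.14 for TNF, -0.53 to -0.05 for IL1B, -0.8 to -0.33 for CCL2 and -0.23 to -0.04 for PLAUR. Control replicate 3 decided the small end for TNF (-0.14), IL1B (-0.05) and PLAUR (-0.04), since without it only the knockdown groups hold a replicate 3 library. CCL2 was -0.35 without control replicate 1 and -0.8 without control replicate 3. With the replicate 3 term the ranges over left-out libraries were -0.29 to -0.19, -0.39 to -0.33, -0.7 to -0.43 and -0.18 to -0.13. The guide 2 against guide 1 adjusted p of limma was at least 0.755 for every member under every alternative. The PLAUR pentamer count went from 1 to 0 in the transcript with the longest 3' UTR.

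Counts of called genes moved with the model. For the mean of the guides 9 genes were called, 152 with a replicate block, 192 with the replicate 3 term, 14 in replicates 1 and 2 alone, and 3 to 7 with 1 library left out (3 without control replicate 2 or 3). For guide 1 the counts were 6, 54 with the block, 74 with the term and 2 to 4 with 1 library left out, and for guide 2 they were 6, 91, 88 and 3 to 6. For guide 2 against guide 1 they were 0, and 1 without a filter, with the block or in replicates 1 and 2 alone, and 0 to 1 with 1 library left out. With the term and 1 library left out, the counts ran from 34 to 202 for the mean of the guides, 7 to 69 for guide 1, 27 to 138 for guide 2 and 0 to 2 for the difference; the cause was not tested. With the replicate block 2 of the 4 mRNAs were called (IL1B and CCL2). Replicate numbers were not taken to pair the libraries: deviations of same-numbered libraries correlated at 0.622 to 0.628 for replicate 3 but at 0.04 to 0.324 for replicates 1 and 2, where different numbers reached 0.371, so the block is given here only. CCL2 has 20 to 58 reads per library if the smallest whole numbers hold; read numbers of the other members were not estimated.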
